A study of Homo sapiens with 36 samples.

Results

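The MYC and MAX transcription factor network is represented here by 9 genes of the 62757 in the count tables: MYC, its obligate partner MAX, the MAX-binding repressors MXD1, MXD3, MXD4, MXI1, MNT and MGA, and MLX, the MAX-like partner of several of them. The genes were chosen by name and matched by Ensembl identifier, and MYC was selected also on a measured value, its lower mRNA in cells without FBXW7, so that contrast is described here without a test. The cells were HCT-116, a colorectal carcinoma line, either wild type (WT) or FBXW7-/-, called KO; the number of KO clones was not given in the sources used here. KO cells had received for 48 h a control esiRNA (esiCT) or an esiRNA against the class IIa histone deacetylase HDAC4 (esiHDAC4). Other KO cells had received esiCT with #11, a PROTAC degrader aimed at HDAC4. The paper reports that this degrader was not selective and also removed the other class IIa histone deacetylases. Each condition was left untreated, with solvent in place of drug, or was exposed to 50 µM oxaliplatin (OXPT), a platinum drug that damages DNA, for the last 24 h. This gave 8 groups of 3 libraries, named KO esiCT, KO esiHDAC4, KO #11 and WT, each untreated or with OXPT. The labels left 2 points unsettled. The dose of #11 is given as 1 µM in one entry and 10 µM in another, and the 6 WT libraries carry esiCT in their titles but esiHDAC4 in their treatment entries, so their esiRNA is not stated here.

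MYC is a basic helix-loop-helix leucine zipper protein that binds DNA only as a dimer with MAX, mostly at the E-box CACGTG, and raises transcription of genes for ribosome assembly, nucleotide synthesis and cell growth. The MXD proteins, MXI1, MNT and MGA compete for the same MAX, occupy the same E-boxes and recruit corepressors, so the output of the network depends on which partner of MAX is present. MYC protein is short-lived, and FBXW7 is the substrate receptor of an SCF ubiquitin ligase that marks phosphorylated MYC for degradation. MYC mRNA and MYC protein need not move together, and no protein was measured in these files.

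The genes lie apart in the genome (GRCh38, GENCODE 44): MAX at chr14:65006174-65102695, MXD1 at chr2:69897688-69942945, MXD3 at chr5:177301461-177312757, MXD4 at chr4:2247432-2262109, MXI1 at chr10:110207605-110287365, MNT at chr17:2384073-2401104, MGA at chr15:41621134-41773081, MLX at chr17:42567072-42573239 and MYC on chromosome 8. Reads were counted over annotated exons without regard to strand, and reads in bases shared by 2 genes were not counted to either. Such bases make up 16.1% of the exon bases of MAX, 43.7% of MXD3, 12.2% of MNT and 18.2% of MLX, and 1.16 to 3.73% of the other 5 members.

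Libraries held 10725966 to 20527222 reads counted to genes, with a median of 14510758. Between 7.74 and 22.3% of reads were unmapped, and 10.6 to 12.2% were ambiguous between overlapping genes. The highest unmapped shares were those of replicate 3 in KO esiCT with OXPT (22.3%), untreated WT (13.8%), KO esiHDAC4 with OXPT (13.4%) and WT with OXPT (11.9%). In the other groups replicate 3 had 8.92 to 10.3%. Replicate 3 of KO esiCT with OXPT also held the fewest counted reads. The libraries carried the epithelial genes EPCAM, KRT8, KRT18, KRT19 and CDH1 (5 of 5 detected, summed level 5115 to 21570 CPM, read counts per 1000000 counted reads after TMM normalization), while of 8 genes of fibroblast, blood and endothelial cells only COL1A1 had a mean above 1 CPM. OXPT had acted in each background, since CDKN1A, the p53-induced cell cycle inhibitor, rose by 2.55 to 3.18 on the log2 scale in the 4 OXPT comparisons (highest adjusted p = 0.000136). HDAC4 mRNA was 10.9 ± 3.48 CPM in untreated KO esiHDAC4 against 19.1 ± 5.45 in KO esiCT (mean ± SD, n = 3 each), a difference of -0.82 ± 0.24 that did not pass the test (adjusted p = 0.561). It was 22.0 ± 3.44 in untreated WT. With OXPT it was 3.88 ± 0.481 in KO esiHDAC4, 6.50 ± 0.915 in KO esiCT and 8.98 ± 0.897 in WT. The genotypes differ, so these levels do not settle the esiRNA of the WT libraries. Where nothing says that libraries came from separate cultures, p-values measure the spread between these libraries, which may be technical. In these bulk samples fewer cells of a kind and less RNA per cell cannot be told apart.

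MYC was the most abundant member and lower in KO than in WT, the difference on which it was chosen. Levels are CPM, given for replicates 1, 2 and 3 in turn. Untreated KO esiCT libraries held 94.9, 139 and 103, and untreated WT libraries held 231, 317 and 315. With OXPT the KO esiCT libraries held 156, 146 and 111 and the WT libraries 279, 321 and 387. The highest KO library thus lay below the lowest WT library in both states. The fitted difference, KO esiCT minus WT, was -1.36 ± 0.21 untreated and -1.26 ± 0.21 with OXPT (log2 ± SE), which is 2.57-fold and 2.39-fold more MYC mRNA in WT. Non-overlapping libraries were found for 6.4% of the 12356 genes tested in the untreated contrast and for 6.39% in the OXPT contrast, and since MYC was chosen on this difference nothing further is read from it. Without replicate 3 of every group the OXPT difference was -1.0.

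**Figure D1:**
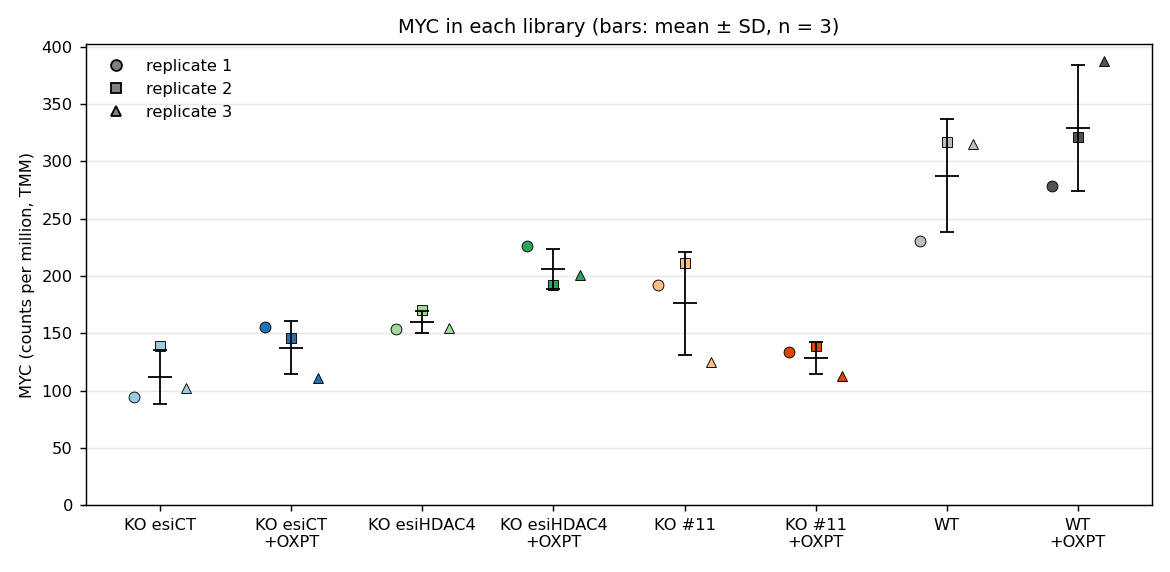
MYC level in each of the 24 libraries, in CPM after TMM normalization (vertical axis, from 0), for the 8 groups (horizontal axis). Symbols mark the replicate number, and bars give the mean ± SD (n = 3). All 18 KO libraries lie below the 6 WT libraries, and the KO #11 group is the one in which the OXPT mean (128) is below the untreated mean (176).

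MXD1 and MNT were also lower in untreated KO esiCT than in untreated WT with no overlap. MXD1, a repressor associated with differentiation, was at 3.01, 4.22 and 4.62 in KO and at 4.89, 13.5 and 25.7 in WT, a difference of -1.89 ± 0.42. MNT, the broadly expressed antagonist of MYC, was at 16.0, 13.5 and 20.6 in KO and 22.9, 26.4 and 34.7 in WT, a difference of -0.75 ± 0.25. The WT values of MXD1 spread over a wide range, and with OXPT neither gene was separated (MXD1 -0.48 ± 0.41, MNT -0.12 ± 0.24). The other 6 members overlapped between genotypes in both states, with differences of -0.30 to 0.25. The 60 tested genes of a MYC-induced list (ribosome assembly, nucleotide synthesis and growth genes) had a median KO minus WT difference of -0.07 untreated and -0.06 with OXPT, beside medians of -0.03 and 0.05 over all genes.

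Across the 8 groups the mean MYC level rose in the order KO esiCT untreated (112 ± 23.3), KO #11 with OXPT (128 ± 13.8), KO esiCT with OXPT (138 ± 23.3), KO esiHDAC4 untreated (160 ± 9.58), KO #11 untreated (176 ± 45.2), KO esiHDAC4 with OXPT (206 ± 17.7), WT untreated (288 ± 49.2) and WT with OXPT (329 ± 54.8). Libraries of neighbouring groups in this order overlapped at every step but the one from KO esiHDAC4 with OXPT to untreated WT. By the correlation of group means, the protein-coding genes most like MYC among 11254 included SLC1A3 and SLC2A3, which carry glutamate and glucose, OASL, an interferon-induced gene, and DPEP1, a membrane dipeptidase, with Pearson's r of 0.95, 0.94, 0.91 and 0.91. The 8 points share libraries, depth and the 2 genotypes, so these coefficients are a description.

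HDAC4 silencing went with more MYC mRNA in KO cells in each library, but the difference did not pass the test over all genes. Untreated KO esiHDAC4 libraries held 154, 171 and 155 CPM, all above the 3 untreated KO esiCT libraries. With OXPT they held 226, 192 and 201, again all above KO esiCT. The differences were 0.51 ± 0.21 (unadjusted p = 0.0228) and 0.58 ± 0.21 (unadjusted p = 0.0108), and the adjusted p-values of edgeR's quasi-likelihood test were 1.00 and 1.00. With only the groups compared and the replicate number as a block, the edgeR adjusted p was 0.0193 untreated (0.54, under the fold threshold) and 0.382 with OXPT (0.59). A call here needs an adjusted p under 0.05 over 12356 genes and a fold change over 1.5. By that rule 0 of the 9 members were called for silencing in either state, beside 0.00809% of all genes untreated (1 gene) and 0% with OXPT (0 genes, 380 at an unadjusted p under 0.05 and 9 by DESeq2). Libraries did not overlap for 21.7% of all genes in untreated cells and for 4.61% with OXPT, and among the members MYC alone was separated in either state. The comparisons of silencing and of #11 share the KO esiCT libraries.

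With #11 the untreated KO libraries held 192, 211 and 125 CPM of MYC, against 94.9, 139 and 103 without it. Replicate 3 of the #11 group lay within the range of KO esiCT and the other 2 lay above it. The difference was 0.65 ± 0.21, or 1.57-fold, with an adjusted p of 0.138, and it was called without replicate 3 of every group (0.80, adjusted p = 0.0125). With OXPT the #11 libraries held 133, 139 and 113, and the difference to KO esiCT was -0.10 ± 0.21 (adjusted p = 0.900). No member passed for #11 in either state, beside 0.51% of all genes untreated (63 genes) and 0.121% with OXPT (15 genes). Libraries did not overlap for 31.9% of all genes untreated, where MXD1 alone among the members was separated (6.29, 7.64 and 10.5 with #11, 1.05 ± 0.42, adjusted p = 0.248). They did not overlap for 14.3% with OXPT, where MNT alone was separated. MNT was at 21.2, 17.0 and 12.3 with #11 and OXPT and at 26.9, 38.4 and 27.7 with esiCT and OXPT, a difference of -0.88 ± 0.25 with an adjusted p of 0.178.

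OXPT itself left MYC mRNA without a call in each background. The change was 0.30 ± 0.21 in KO esiCT (adjusted p = 0.391), 0.37 ± 0.21 in KO esiHDAC4 (0.278), 0.19 ± 0.21 in WT (0.616) and -0.46 ± 0.21 in KO #11 (0.185). Libraries of the same replicate number rose with OXPT in 3 of 3 pairs in KO esiCT, KO esiHDAC4 and WT, and fell in 3 of 3 pairs in KO #11. The change with #11 minus the change with esiCT was -0.75 ± 0.29, with an unadjusted p of 0.0180 and an adjusted p of 0.585. Without replicate 3 of every group MYC in KO #11 fell by 0.62 on the log2 scale and was called (adjusted p = 0.0287). With only the groups compared and the replicate number as a block, its change was -0.43, under the fold threshold (edgeR adjusted p = 0.0286). MYC libraries did not overlap between untreated and OXPT in KO esiHDAC4, as for 35.4% of all genes, and overlapped in the other backgrounds.

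Relative to exon length, MYC led the network in every group. The mean over 24 libraries was 31.4 CPM per kilobase of exon for MYC, 15.4 for MLX, 11.2 for MXI1, 10.9 for MAX, 9.76 for MXD4, 4.91 for MXD3, 2.74 for MNT, 1.1 for MXD1 and 0.758 for MGA. The value of MXD3 is too low by construction, since its shared exon bases lie in RAB24 or PRELID1. Over the bases of no other gene it was 8.73. Over all exon bases, and so with the low value of MXD3, shares were taken of the summed level of MYC, MXD1, MXD3, MXD4, MXI1, MNT and MGA. MYC made up 41.7 ± 8.81% of this sum in untreated KO esiCT and 58.6 ± 3.56% in untreated WT. With OXPT the shares were 42.6 ± 8.12% in KO esiCT and 61.8 ± 2.31% in WT. MYC was chosen on its lower level in KO, so its lower share there carries that choice and nothing is read from it. The share in KO #11 was 50.4 ± 10.3% untreated and 37.2 ± 3.53% with OXPT, the lowest mean of the 8 groups, where MXD4 held 26.9 ± 3.05%. MYCL, a paralog that also binds MAX, was at group means of 9.90 to 16.3 CPM and is not part of these sums, and MYCN had at most 2 reads in a library.

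**Figure D2:**
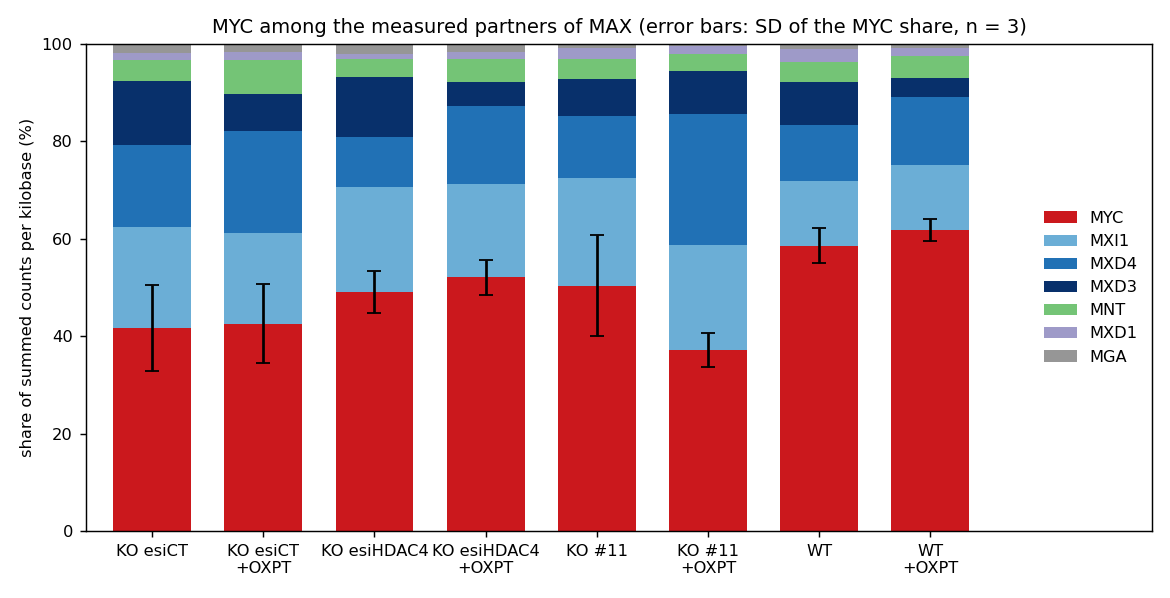
Share of each measured partner of MAX in the sum of the 7 partners, in percent of CPM per kilobase of exon (vertical axis), as the mean of 3 libraries per group (horizontal axis). Black bars give the SD of the MYC share. MYC holds 58.6 and 61.8% in the WT groups and 37.2 to 52.1% in the KO groups. MYC was chosen on its lower level in KO, and this gap carries that choice. MXD3 enters at its value over all exon bases, which is too low.

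MAX, the partner on which the other members depend, was called higher with OXPT in 2 of the 4 backgrounds. Libraries of the same replicate number rose in 3 of 3 pairs in each of the 4. In KO esiCT it went from 46.6, 49.3 and 56.7 CPM to 65.1, 74.9 and 99.8, a change of 0.65 ± 0.19 (adjusted p = 0.0333). In KO esiHDAC4 it went from 49.7, 47.4 and 53.3 to 71.6, 86.9 and 94.1, a change of 0.75 ± 0.19 (adjusted p = 0.0144). Neither pair of groups overlapped. In WT the untreated libraries held 57.4, 47.5 and 79.4 and the OXPT libraries 81.5, 81.1 and 86.1, which did not overlap either, and the change of 0.43 ± 0.19 did not pass (adjusted p = 0.163). It was called without WT untreated replicate 3 (0.67, adjusted p = 0.0203). In KO #11 the groups overlapped, at 59.9, 69.5 and 50.4 against 78.4, 78.9 and 67.3 (0.32 ± 0.19, adjusted p = 0.339). Silencing and #11 left MAX within -0.09 to 0.24 of KO esiCT. The call in KO esiCT was lost in 10 of the 24 fits that each left out 1 library. It had an adjusted p of 0.0636 to 0.171 without KO esiCT OXPT replicate 2 or 3 or KO esiCT untreated replicate 1 or 2. It had one of 0.0519 to 0.0549 without KO esiHDAC4 OXPT replicate 2, KO esiHDAC4 untreated replicate 1, 2 or 3, KO #11 untreated replicate 1 or KO #11 OXPT replicate 1. Both calls were also lost with reverse-strand counts (0.27 and 0.46, adjusted p = 0.311 and 0.0653) and with no count filter (adjusted p = 0.357 and 0.158), and that in KO esiCT with only the groups compared (adjusted p = 0.149, or 0.0714 with the replicate block) and, on the fold, without replicate 3 of every group (0.55). The call in KO esiHDAC4 was lost in 4, with an adjusted p of 0.0604 to 0.0719 without KO esiHDAC4 OXPT replicate 2 or 3 or KO esiHDAC4 untreated replicate 1 or 2. Of the exon bases of MAX, 822 overlap FNTB on the other strand, whose reads the reverse-strand column can count to MAX. That column held 55.1 to 86.3% of the unstranded counts of MAX, beside 57.1 to 60.4% over all genes.

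**Figure D3:**
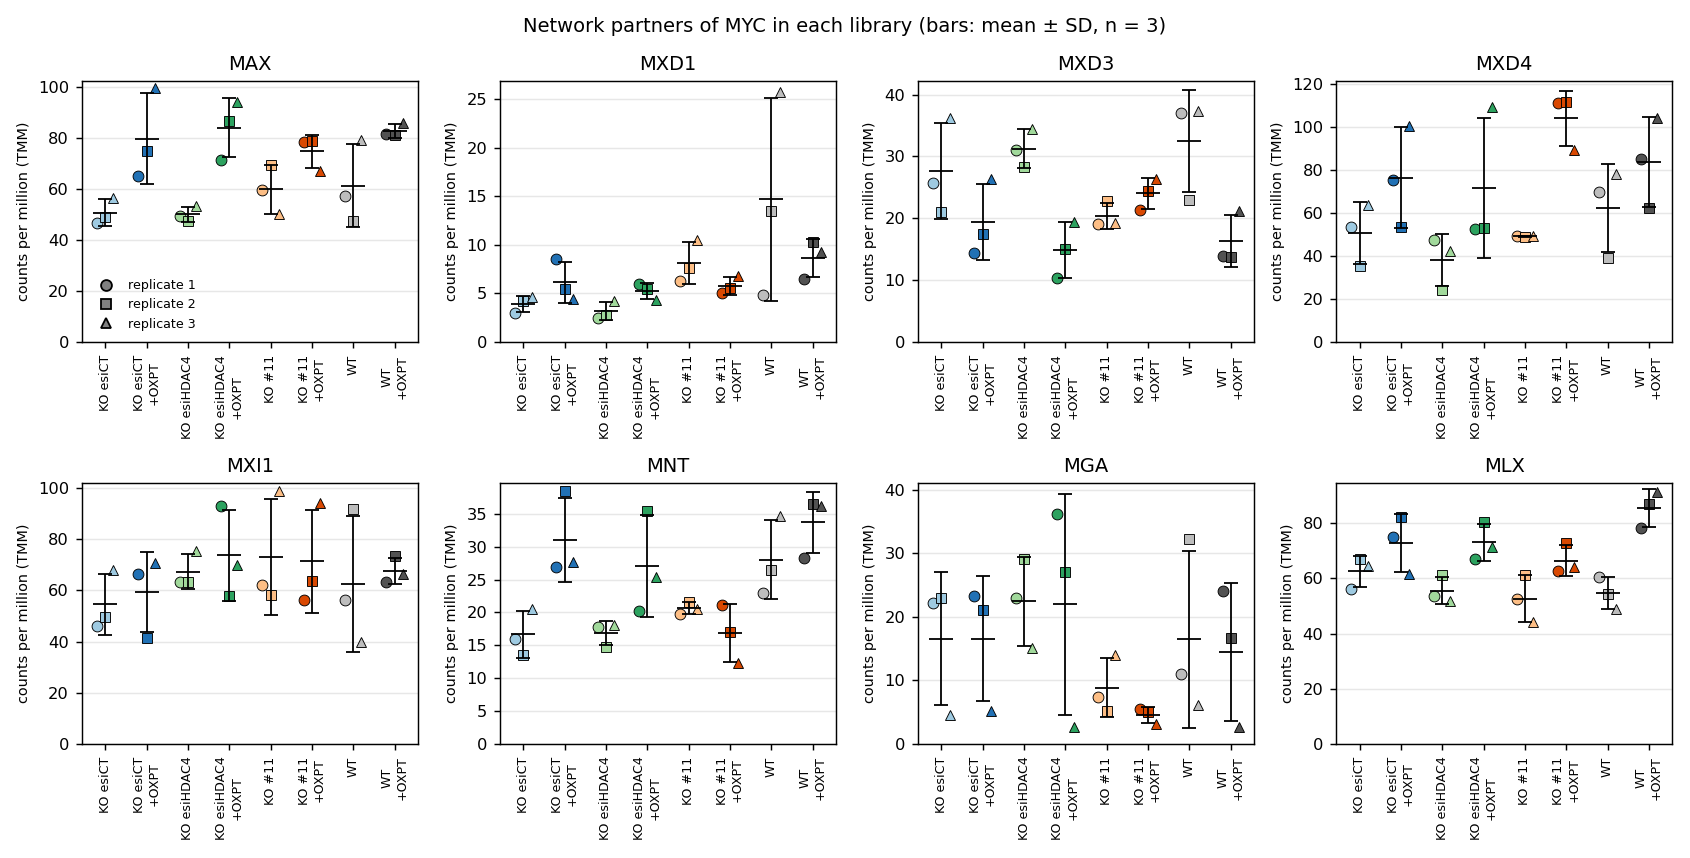
Levels of the 8 network partners of MYC in each library, in CPM after TMM normalization (vertical axes, each from 0), by group (horizontal axes). Symbols mark the replicate number, and bars give the mean ± SD (n = 3). MAX and MXD4 means are higher with OXPT in each background. MXD3 means are lower with OXPT in all but KO #11 (not so with reverse-strand counts, which can hold PRELID1 reads). Replicate 3 of MGA is the lowest of its group in all but untreated KO #11.

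The MXD family did not move as one under OXPT. MXD3, a repressor linked to proliferating cells, was called lower in 2 backgrounds. It went to 10.4, 15.0 and 19.4 from 31.1, 28.2 and 34.5 in KO esiHDAC4 (-1.07 ± 0.28, adjusted p = 0.0149) and to 13.9, 13.8 and 21.1 from 37.1, 23.0 and 37.3 in WT (-0.99 ± 0.28, adjusted p = 0.0242). These groups did not overlap. In KO esiCT the change was -0.52 ± 0.28 (adjusted p = 0.248) with overlapping libraries, at 25.7, 21.1 and 36.1 untreated and 14.5, 17.5 and 26.3 with OXPT. KO #11 stood apart, at 19.1, 22.8 and 19.3 untreated and 21.3, 24.4 and 26.3 with OXPT (0.24 ± 0.27, adjusted p = 0.653). Same-numbered libraries fell in 3 of 3 pairs in KO esiCT, KO esiHDAC4 and WT and rose in 3 of 3 in KO #11, and the difference between KO #11 and KO esiCT was 0.75 ± 0.39 (adjusted p = 0.759). The WT call was lost without WT OXPT replicate 1 or 2 or WT untreated replicate 1 (-0.89 each, adjusted p = 0.0836 to 0.0949), and with only the groups compared (adjusted p = 0.198, or 0.0594 with the replicate block). Reverse-strand counts of MXD3 were 300.0 to 985% of its unstranded counts, beside 57.1 to 60.4% over all genes. Of its exon bases, 1148 overlap PRELID1 on the other strand, whose reads this column can count to MXD3. With these counts the MXD3 change was 0.20 in KO esiCT, 0.0120 in KO esiHDAC4, -0.28 in WT and 0.09 in KO #11. The direction in KO esiCT and KO esiHDAC4 and the sign of the difference between KO #11 and KO esiCT (-0.11) thus turned. How much of this came from PRELID1 reads was not tested. The KO esiHDAC4 call was lost without KO esiHDAC4 OXPT replicate 1 or 2 or KO esiHDAC4 untreated replicate 3 (-0.85, -1.08 and -0.98, adjusted p = 0.0568 to 0.0672).

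MXD4, a repressor associated with cells leaving the cycle, rose with OXPT in KO #11, where it went from 49.4, 48.9 and 49.1 CPM to 111, 112 and 89.5 (1.08 ± 0.33, adjusted p = 0.0418). In KO esiHDAC4 it went from 47.6, 24.4 and 42.6 to 52.6, 53.2 and 109.5, without overlap, a change of 0.91 ± 0.33 that did not pass as fitted (adjusted p = 0.0790) and did with the replicate number as a block (0.90, adjusted p = 0.0158). It was also called there without KO esiHDAC4 OXPT replicate 1 (1.1, adjusted p = 0.0489). The changes of 0.59 ± 0.33 in KO esiCT and 0.43 ± 0.33 in WT did not pass, and their libraries overlapped. The call in KO #11 was lost with a minimum of 64 counts in every group (adjusted p = 0.0573), with reverse-strand counts (adjusted p = 0.0530) and in 11 of the 24 fits that left out 1 library. The adjusted p was 0.107 to 0.143 without KO #11 untreated replicate 1, 2 or 3 or KO #11 OXPT replicate 1 or 2. It was 0.0503 to 0.0600 without KO esiCT OXPT replicate 1, KO esiCT untreated replicate 1, KO esiHDAC4 OXPT replicate 2, KO esiHDAC4 untreated replicate 1 or 3 or WT OXPT replicate 1.

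MXI1, the family member nearest to MAX in level per exon length, had small OXPT changes and a wide spread, with single libraries at 39.8 to 98.9 CPM. Its group means ran from 54.5 to 73.6 CPM, its OXPT changes were 0.12, 0.13, 0.11 and -0.03 in KO esiCT, KO esiHDAC4, WT and KO #11, each with an SE of 0.29, and it was separated between groups in none of the 8 comparisons. MXD1 was the scarcest of the family, at 2.47 to 25.7 CPM in single libraries. Its OXPT change was 0.65 ± 0.42 in KO esiCT, 0.74 ± 0.42 in KO esiHDAC4, -0.50 ± 0.41 in KO #11 and -0.76 ± 0.41 in WT, and none passed. The KO esiHDAC4 libraries of MXD1 did not overlap, at 2.47, 2.80 and 4.22 untreated and 5.96, 5.45 and 4.35 with OXPT. Without WT untreated replicate 1 the WT change was called (-1.17, adjusted p = 0.0399).

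MNT rose with OXPT in KO esiCT, from 16.0, 13.5 and 20.6 CPM to 26.9, 38.4 and 27.7 (0.89 ± 0.25, 1.86-fold, adjusted p = 0.0216). In KO esiHDAC4 it went from 17.7, 14.7 and 18.1 to 20.2, 35.5 and 25.4, again without overlap, and the change of 0.68 ± 0.25 did not pass in edgeR (adjusted p = 0.0756). It did in DESeq2 (0.67, adjusted p = 0.0455) and without KO esiHDAC4 OXPT replicate 1 (0.86, adjusted p = 0.0352). In WT, where MNT started higher, the libraries overlapped (0.27 ± 0.24, adjusted p = 0.549). In KO #11 they overlapped too, at 19.8, 21.6 and 20.5 untreated and 21.2, 17.0 and 12.3 with OXPT (-0.29 ± 0.25, adjusted p = 0.511). The KO #11 response minus the KO esiCT response was -1.19 ± 0.35 for MNT, with an unadjusted p of 0.00269 and an adjusted p of 0.381. The call in KO esiCT was lost without KO esiCT OXPT replicate 2, KO esiCT untreated replicate 1 or KO esiCT untreated replicate 2 (0.69, 0.85 and 0.75, adjusted p = 0.0982 to 0.127). It was also lost with no count filter (adjusted p = 0.147), with reverse-strand counts (0.66, adjusted p = 0.101) and with only the groups compared (adjusted p = 0.106, or 0.0701 with the replicate block). Of the exon bases of MNT, 1065 overlap a noncoding gene on the other strand. The reverse-strand column can count its reads to MNT, and held 45.9 to 85.7% of the unstranded counts.

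MLX, which pairs with MXD1, MXD4, MNT and the glucose-sensing factors MLXIP and MLXIPL, was higher with OXPT in each mean. In WT it rose from 60.6, 54.2 and 49.0 CPM to 78.2, 87.0 and 91.5 (0.65 ± 0.16, 1.57-fold, adjusted p = 0.0114). The libraries were also separated in KO esiHDAC4 (53.6, 61.2 and 51.8 against 67.1, 80.5 and 71.5) and in KO #11 (52.5, 61.1 and 44.2 against 62.6, 72.8 and 63.99), with changes of 0.40 ± 0.16 and 0.34 ± 0.16 that did not pass (adjusted p = 0.115 and 0.205). In KO esiCT the change was 0.22 ± 0.16 with overlapping libraries. This call was lost without WT untreated replicate 3 (0.58, under the fold threshold), without replicate 3 of every group (0.54), with reverse-strand counts (0.30, adjusted p = 0.328), with no count filter (adjusted p = 0.314) and with only the groups compared (adjusted p = 0.291, or 0.173 with the replicate block). Of the exon bases of MLX, 775 overlap PSMC3IP on the other strand. The reverse-strand column can count its reads to MLX, and held 71.4 to 129% of the unstranded counts. Of the partners of MLX, neither MLXIP nor MLXIPL was called in any comparison.

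**Figure D4:**
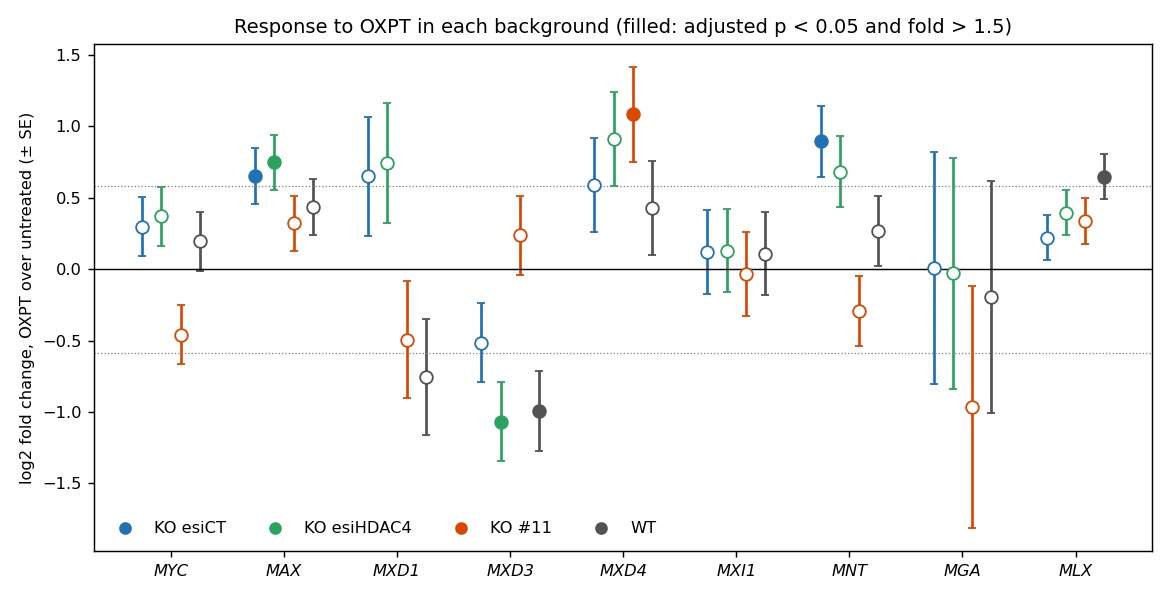
Change with OXPT of the 9 members in the 4 backgrounds, as the log2 fold change ± SE of the edgeR fit (vertical axis). Filled points passed an adjusted p of 0.05 and a fold of 1.5, and dotted lines mark that fold. MAX, MXD4 and MLX lie above 0 in each background. MYC, MXD3, MXI1 and MNT lie on the other side of 0 in KO #11 than in the other 3 backgrounds. For MXD3 this did not hold with reverse-strand counts, which can hold PRELID1 reads.

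Counted over the members, OXPT gave 2 calls higher in KO esiCT (MAX, MNT), 1 higher and 1 lower in KO esiHDAC4 (MAX, MXD3), 1 higher and 1 lower in WT (MLX, MXD3) and 1 higher in KO #11 (MXD4). Among all genes, 6.23% were called higher and 5.08% lower in KO esiCT, 6.44 and 5.54% in KO esiHDAC4, 5.1 and 5.6% in WT and 5.94 and 3.57% in KO #11. With 9 members, a share of that size is under 1 gene in each direction. With reverse-strand counts in place of the unstranded ones 0 members were called in each background. These counts can hold reads of genes on the other strand, such as those over MAX, MXD3, MNT and MLX. How much of the loss came from such reads was not tested. Libraries of the compared groups did not overlap for 30.1% of all genes in KO esiCT, 35.4% in KO esiHDAC4, 21.3% in WT and 42.5% in KO #11. The median change of the 9 members was 0.30, 0.40, 0.19 and -0.03 in these 4 backgrounds, beside 0.01, 0.02, -0.06 and 0.00 over all genes. No member, and 0% of all genes, was called for the difference of the OXPT response between genotypes, for that between esiHDAC4 and esiCT or for that between #11 and esiCT. MYC, chosen on its difference between genotypes, was not tested for the first. At an unadjusted p under 0.05 these 3 differences held 201, 19 and 863 genes, and DESeq2 called 0, 0 and 36.

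MGA, a very large protein that carries both a T-box and a MAX-binding domain, varied between libraries of the same group more than any other member. Its levels in replicates 1, 2 and 3 were 22.2, 23.0 and 4.49 CPM in untreated KO esiCT, 36.2, 27.1 and 2.63 in KO esiHDAC4 with OXPT and 24.0, 16.7 and 2.71 in WT with OXPT. Replicate 3 was the lowest of its group in all but untreated KO #11, where the values were 7.33, 5.14 and 14.1. KO #11 with OXPT was low in each library (5.41, 5.08 and 3.04), and the difference to KO esiCT with OXPT was -1.88 ± 0.86 (adjusted p = 0.461). This difference was called without replicate 3 of every group (-2.12, adjusted p = 0.00566), as was that in untreated cells (-1.86, adjusted p = 0.00583), which was -0.91 ± 0.83 over the 3 replicates. The SE of the OXPT changes of MGA was 0.81 to 0.85, so that the depth and the spread here could not show a change of the size seen for the other members.

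The spread of MGA moved with that of other long transcripts. MGA has an annotated transcript of 14568 bases, and 569 other tested genes have one of at least 10000. Their median deviation from the mean over the 24 libraries, taken as an index, ran from -1.19 to 0.75 on the log2 scale, and it was -0.62, -0.61 and -1.19 in replicate 3 of KO esiCT, KO esiHDAC4 and WT with OXPT. Over the 24 libraries, which share groups and replicate numbers, Pearson's r of the log2 level with the index was 0.86 for MGA, -0.72 for MAX and -0.78 for MXD4, and -0.33 to 0.15 for the other members. With the index as a covariate, an alternative added after the data were seen, MGA differed by -1.20 between #11 and esiCT under OXPT (adjusted p = 0.0625). The OXPT change of MAX was then 0.55 in KO esiCT, which was under the fold threshold (adjusted p = 0.00906), and 0.59 in KO esiHDAC4 (adjusted p = 0.00650). That of MXD4 in KO #11 was 0.84 (adjusted p = 0.0127) and those of MXD3 were -1.28 in WT, -1.37 in KO esiHDAC4 and -0.69 in KO esiCT, all called. Also called then were MYC for #11 in untreated KO (0.65, adjusted p = 0.0425) and MNT for #11 under OXPT (-0.91, adjusted p = 0.0459).

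Of the 9 members, 8 have an entry in the RefSeq promoter table (GRCh38.p14), and 3 of these, MXD4, MNT and MLX, hold the MYC and MAX motif CACGTG in the 250 bases before the start, a motif that reads the same on both strands. The motif is held by 6.49% of all 27305 promoters there. The 3 sequences are shown because they hold the motif. Each of these genes was called higher with OXPT in at least 1 background, in the main test a different one for each. MAX, whose stretch does not hold the motif, was called higher too. Each of these calls was lost under some of the alternative settings, as given above. Whether genes with the motif were called with OXPT more often than others was not tested. The 3 sequences run 5′ to 3′ on the gene's strand and are limited to bases before the start of the gene in GENCODE. The motif is in capitals and begins 238, 193 and 50 bases before the RefSeq start of MXD4, MNT and MLX in turn. The MXD4 stretch is chr4:2262110-2262359 on the minus strand, the MNT stretch chr17:2401105-2401310 on the minus strand and the MLX stretch chr17:42566850-42567071 on the plus strand. A match is a description of the sequence, and no binding was measured here.
MXD4: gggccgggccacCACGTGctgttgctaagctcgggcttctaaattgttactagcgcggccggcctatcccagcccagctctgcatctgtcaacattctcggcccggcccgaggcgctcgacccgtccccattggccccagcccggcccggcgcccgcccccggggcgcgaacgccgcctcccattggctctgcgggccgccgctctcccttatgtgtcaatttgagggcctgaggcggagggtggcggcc
MNT: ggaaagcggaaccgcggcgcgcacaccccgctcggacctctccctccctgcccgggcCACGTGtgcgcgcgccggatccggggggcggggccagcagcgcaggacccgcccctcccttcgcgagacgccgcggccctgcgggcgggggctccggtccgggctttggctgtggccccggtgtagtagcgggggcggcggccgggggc
MLX: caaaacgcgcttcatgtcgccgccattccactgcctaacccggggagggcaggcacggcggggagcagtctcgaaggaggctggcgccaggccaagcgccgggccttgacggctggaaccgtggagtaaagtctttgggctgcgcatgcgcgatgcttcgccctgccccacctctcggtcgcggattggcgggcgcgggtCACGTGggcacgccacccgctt

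Of the MYC-induced genes, a list of nucleolar, nucleotide synthesis and growth genes, 60 of 62 were tested. With OXPT 1 of the 60 rose and 3 fell in KO esiCT, beside 6.23 and 5.08% of all genes. In KO esiHDAC4 6 rose and 2 fell, beside 6.44 and 5.54%, in WT 3 rose and 2 fell, beside 5.1 and 5.6%, and in KO #11 4 rose and 1 fell, beside 5.94 and 3.57%. Their median change was 0.13, 0.21, 0.07 and 0.14, beside the medians over all genes given above. PLK1, a mitotic kinase, fell in each background, with log2 changes of -2.21, -2.12, -1.81 and -1.23. SLC19A1, the reduced folate carrier, whose exons overlap COL18A1, fell in KO esiCT, KO esiHDAC4 and WT, with changes of -2.44, -1.87 and -2.84. Genes of ribosome assembly and RNA processing were among those that rose, RCL1 by 0.98 in KO esiCT and 0.75 in WT, BYSL by 0.92 in WT and 0.69 in KO #11, and RRP12 and EXOSC5 by 1.19 and 0.97 in KO esiHDAC4. PHB1, a mitochondrial scaffold protein, rose by 0.78 in KO #11. None of the 60 was called for silencing or for #11, and their medians were -0.10 and 0.00 for silencing and -0.23 and -0.16 for #11, untreated and with OXPT.

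Lists of genes that act with the network or on MYC protein were short, with 7 to 11 members tested. There, 0 to 2 calls a list with OXPT are near the shares of all genes just given, and nothing is read from their number. Of 2 targets of MLXIP only 1 was tested, which gives no share. Of 11 genes of MYC protein turnover, AURKA, the mitotic kinase that shields MYCN protein from FBXW7, fell with OXPT in each background (-1.72 in KO esiCT, -1.81 in KO esiHDAC4, -1.72 in WT and -0.79 in KO #11). FBXW7 mRNA, whose whole-gene count does not check the genotype, rose by 1.33 in KO esiCT and 1.09 in KO #11, and its changes of 0.93 in KO esiHDAC4 and 0.51 in WT did not pass. Of 10 coactivators of MYC, KAT2A, a histone acetyltransferase, rose with OXPT by 0.62 in KO esiHDAC4, 0.74 in WT and 0.91 in KO #11, and no other was called. Of 7 corepressors of the MXD proteins, SIN3B rose by 0.69 in WT, and among 10 partners of MGA in the PRC1.6 complex none was called. ARRDC4, an arrestin-like gene and a target of MLXIP with MLX, rose by 1.94 ± 0.59 in KO esiCT with OXPT (adjusted p = 0.0389), from 4.73 ± 1.67 to 18.1 ± 4.80 CPM. Its changes of 1.65 in KO esiHDAC4, 0.56 in WT and -0.61 in KO #11 were not called. HDAC4 mRNA fell with OXPT in KO esiCT, KO esiHDAC4 and WT (-1.56, -1.48 and -1.29) and was 2.57-fold higher with #11 than with esiCT under OXPT (adjusted p = 0.0383).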

How the data were processed

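Gene counts of 24 RNA-seq libraries in 8 groups of 3 were analysed, and 12 WT libraries whose labels contradict each other on treatment were not used. The authors deposited raw read counts per gene, made per the labels with Trimmomatic 0.39 and STAR 2.7.11a on hg38, with an unstranded and 2 stranded columns. Reverse-strand totals were 1.00 to 1.02 times the forward totals, so the unstranded counts were used. In such libraries the reverse-strand column can hold reads of a gene that overlaps on the other strand. Identifiers were named with GENCODE 44, and 62639 of 62757 matched without their version.

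A gene was tested where its raw counts averaged 64 or more in some group (12356, all 9 members; MXD1 and MGA fell below 64 in some groups), so a member could pass on the group where it is high. The main test was the quasi-likelihood test of edgeR 4.0.16 (R 4.3.3) with TMM normalization in 1 model of the 24 libraries, with Benjamini-Hochberg adjustment over all genes tested, checked on simulated data. The SE is the log2 change divided by the square root of F. DESeq2 1.42.0, RLE scaling, other filters, reverse-strand counts, fewer groups, a replicate block and left-out libraries were alternatives. The count model was used although the study's own test was run on other quantifications.

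Same-numbered libraries deviated together (correlation over genes 0.18 to 0.79) in the OXPT and silencing comparisons. They also did in the interactions of OXPT with genotype (0.11 to 0.70) and with silencing (0.16 to 0.79), so their numbers pair them. The main model left this pairing out, and the replicate block was an alternative. In the comparisons of #11 against esiCT they did not deviate together (-0.25 to 0.13). In the interaction of #11 and OXPT the range was -0.39 to 0.61. No 2 replicates agreed within sampling noise. Named genes were the 9 members, the 5 genes most like MYC (1 of them is not reported here), at most 2 highest and 2 lowest called genes of each list per comparison, and CDKN1A, MDM2, FBXW7 and HDAC4. The members and lists were chosen with earlier results of these data known.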

Additional observations from a re-analysis of the deposited data

Results flagged for a closer look

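For 2 members the response to OXPT took opposite directions in KO #11 and KO esiCT in every same-numbered pair of libraries. MYC fell in 3 of 3 pairs with #11 and rose in 3 of 3 with esiCT, and the difference of the responses was -0.75 on the log2 scale (edgeR adjusted p = 0.585). MXD3 rose in 3 of 3 pairs with #11 and fell in 3 of 3 with esiCT, with a difference of 0.75 (adjusted p = 0.759). With reverse-strand counts the MXD3 change in KO esiCT was 0.20 and the difference -0.11, so that the opposite direction was lost. For MXD3 these counts can hold reads of PRELID1 on the other strand. Neither difference passed the test over all genes. The share of all genes with such opposite pairs was not computed, so nothing is read from the number of members flagged.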

How the results depend on the processing

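Of 1084 comparisons of a member with its value under another setting, 22 lost a call, 13 gained one, 1 reversed and 3 untested values moved; with 1 library left out, 35 lost and 4 gained a call and 1 moved among 2568. Members called with OXPT were 2 in KO esiCT, 2 in WT, 2 in KO esiHDAC4 and 1 in KO #11. They fell to 0, 0, 0 and 0 with reverse-strand counts, where MXD3 in KO esiHDAC4 turned to 0.0120, to 0 in KO esiCT and 1 in WT without the count filter, to 0 in KO #11 with a minimum of 64 in every group, and to 0 in KO esiCT and 0 in WT with only the groups compared, also with the replicate block. Without number 3 of every group they were 1 in KO esiCT and 2 in KO #11. Reverse-strand counts can hold reads of genes on the other strand, such as those over MAX, MXD3, MNT and MLX. For #11 in untreated KO the main count of 0 became 2 without number 3 (MYC, MGA) and 1 with the long-transcript covariate (MYC). For #11 under OXPT it became 1 in DESeq2 (MNT), without the count filter (MGA), without number 3 (MGA) and with the covariate (MNT). With 1 library left out, members called ranged from 0 to 2, 1 to 2, 0 to 3 and 0 to 1 in the 4 OXPT comparisons and were 0 elsewhere.

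All genes called with OXPT were 1398 in KO esiCT, 1322 in WT, 1480 in KO esiHDAC4 and 1175 in KO #11. A minimum of 64 in every group gave 907, 836 and 943 in the first 3, and only the groups compared gave 599 in KO esiCT, 86 in WT and 2698 in KO #11. Leaving out number 3 gave 2156, 2588, 2227 and 2831, and the covariate gave 2305 in KO esiCT, 2126 in WT and 2014 in KO #11. The groups compared with the replicate block gave 686 in WT, 2338 in KO esiHDAC4 and 3100 in KO #11. Leaving out 1 library gave 778 to 1876, 830 to 2094, 809 to 1909 and 555 to 1493.

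For silencing in untreated KO the 1 gene became 2 with RLE, 40 in DESeq2, 3 without the filter, 2 with reverse-strand counts, 0 with the groups compared, 4 with the replicate block, 565 with both, 72 without number 3, 19 with the covariate and 0 to 3 with 1 library left out. Under OXPT the 0 became 9 in DESeq2, 6 without the filter, 1 without number 3 and 10 with the covariate. For #11 in untreated KO the 63 became 409 in DESeq2, 480 without the filter, 544 with the groups compared, 397 with the replicate block, 1807 without number 3, 1014 with the covariate and 0 to 340 with 1 library left out. Under OXPT the 15 became 126 in DESeq2, 367 without the filter, 0 with a minimum of 64 in every group, 0 with the groups compared, with and without the block, 132 with the block in the whole model, 1421 without number 3, 243 with the covariate and 1 to 27 with 1 library left out. The genotype interaction had 24 genes without the filter. The interaction of #11 had 36 in DESeq2, 65 without the filter, 22 with the groups compared, 11 with these and the block, 15 with the replicate block, 248 without number 3, 52 with the covariate and 0 to 39 with 1 library left out.

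The replicate block in the model of all groups added the call of MXD4 in KO esiHDAC4 given above and changed no other call of a member. MYC in KO against WT under OXPT was -1.0 without number 3. Per kilobase of the longest transcript the levels were 51.6 for MYC, 25.3 for MLX, 21.6 for MAX, 19.1 for MXI1, 15.9 for MXD4, 10.2 for MXD3 and 4.84 for MNT, and over exon bases of no other gene MXD3 was at 8.73 and MLX at 18.8. The cause of these shifts was not tested.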
